A study of Mus musculus with 6 samples.

Results

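The nuclear genes of oxidative phosphorylation were followed in the RNA of splenic B-cells across 3 genotypes and 2 culture states. They are the genes whose names begin with Nduf, Uqcr, Cox4 to Cox8 or Atp5, with Sdha, Sdhb, Sdhc and Sdhd, and they are 92 of the 46963 gene names in the counts. The choice was by name and not by any measured value, though earlier results of these data were known. 36 of them encode subunits of complex I, 7 assembly factors of complex I, 4 complex II, 8 complex III, 20 complex IV and 17 complex V or proteins with a related name. After a filter on low counts 87 entered the tests, and the 5 others were the tissue-restricted isoforms Cox4i2, Cox7b2, Cox8b, Cox8c and Ndufa4l2. Processed copies with -ps in the name were left out. Atp5sl is an older name of Dmac2, which is known as an assembly factor of complex I and not as a subunit of ATP synthase.

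The study asked how the Eμ and 3′RR enhancers of the immunoglobulin heavy chain locus act on one another, and its libraries come from CD43-depleted spleen cells of 129 wt mice, of EμMAR-deficient mice (Eμ-deficient below) and of 3′RR-deficient mice, both mutants in a 129 background, male and female, 8 to 12 weeks old. Each genotype has 1 resting (NS) and 1 LPS-stimulated (S) library, and each library was made from a pool of 2 mice. LPS, a bacterial cell wall component that drives mature B-cells into growth and division, was given for 2 days at 5 μg per ml. A protocol text in the labels has this dose in mg, and the labels give 2 days of culture for the resting cells as well. The paper instead describes cells taken before and after stimulation, so the resting cells may not have been cultured. In that case culture and LPS cannot be told apart in what is called the LPS effect below. The 3 genotypes stand in as 3 units for the LPS effect, and among the libraries analysed here no genotype has a replicate within a state. Other pools or experiments of the study were not analysed here. All p-values below measure departure from additivity between these 6 libraries and not the spread between mice. The deposited values are read counts per gene, of which the 6 libraries hold between 9111974 and 21998587. Levels are given as CPM, which are counts scaled to library size by TMM. In bulk RNA, fewer cells of a type and less RNA per cell cannot be told apart.

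Oxidative phosphorylation passes electrons from NADH through complex I, or from succinate through complex II, to ubiquinone, on through complex III and cytochrome c to complex IV, which reduces oxygen. Complexes I, III and IV pump protons across the inner mitochondrial membrane, and complex V, the ATP synthase, lets them return to make ATP. A few core subunits of complexes I, III, IV and V are encoded by the mitochondrial genome, and all others by nuclear genes. The genes described here include every subunit of complex II. They leave out some nuclear subunits of other complexes whose names fall outside the rule, such as Cyc1 of complex III. Resting B-cells have a low metabolic rate, and activation by LPS is known for growth of both glycolysis and mitochondria.

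Nuclear respiratory genes are textbook targets of NRF1, of ETS family factors such as GABPA, of YY1 and of E-box binding factors such as MYC. For each complex the promoter of the member with the largest LPS increase among those with such a motif is shown, since these genes carry the LPS result below. Each run holds the 250 bases before the transcription start in RefSeq, assembly GRCm38.p6, written in the direction of transcription, and capitals mark the motif. The letters searched on both strands were GCGCANGCG for NRF1, CCGGAAG for ETS factors, AAGATGGC for YY1 and CACGTG for the E-box. No motif overlapped another in these runs. Ndufb6 has the ETS letters far upstream, Sdhd has the NRF1 and the ETS letters, Uqcr11 and Cox6b1 have the ETS letters close to the start, and Atp5g1 has the E-box.
Ndufb6, chr4:40279422-40279671, minus strand: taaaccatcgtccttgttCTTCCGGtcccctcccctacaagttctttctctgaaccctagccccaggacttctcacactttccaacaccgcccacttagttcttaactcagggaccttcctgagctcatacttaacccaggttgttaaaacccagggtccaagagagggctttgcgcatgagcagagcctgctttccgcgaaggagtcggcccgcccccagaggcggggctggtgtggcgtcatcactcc
Sdhd, chr9:50603850-50604099, minus strand: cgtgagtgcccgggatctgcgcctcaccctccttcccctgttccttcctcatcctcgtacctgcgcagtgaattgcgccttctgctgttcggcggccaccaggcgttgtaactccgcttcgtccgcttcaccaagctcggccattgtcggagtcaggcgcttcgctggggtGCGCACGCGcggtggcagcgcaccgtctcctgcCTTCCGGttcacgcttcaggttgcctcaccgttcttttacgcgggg
Uqcr11, chr10:80406822-80407071, minus strand: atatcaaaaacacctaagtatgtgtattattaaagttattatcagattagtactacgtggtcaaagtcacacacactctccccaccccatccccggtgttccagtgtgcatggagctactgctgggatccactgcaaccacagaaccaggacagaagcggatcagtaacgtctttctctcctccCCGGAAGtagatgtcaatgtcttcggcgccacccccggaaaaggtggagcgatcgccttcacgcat
Cox6b1, chr7:30626115-30626364, minus strand: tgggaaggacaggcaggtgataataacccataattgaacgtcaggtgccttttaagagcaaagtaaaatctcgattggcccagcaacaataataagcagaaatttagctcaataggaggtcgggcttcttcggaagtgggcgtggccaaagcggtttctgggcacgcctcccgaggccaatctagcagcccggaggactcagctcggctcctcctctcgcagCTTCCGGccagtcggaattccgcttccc
Atp5g1, chr11:96075632-96075881, minus strand: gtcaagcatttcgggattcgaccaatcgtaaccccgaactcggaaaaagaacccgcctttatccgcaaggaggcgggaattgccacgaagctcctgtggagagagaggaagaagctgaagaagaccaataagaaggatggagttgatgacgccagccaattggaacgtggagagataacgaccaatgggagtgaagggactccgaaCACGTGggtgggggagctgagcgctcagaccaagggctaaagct
Promoters were found for 76 members. The NRF1 letters were in 15 of them (19.7%), against 5.86% of all 27025 promoters and 12.9% of the 9441 promoters of genes that entered the tests. The ETS letters were in 13 (17.1%), against 16.2% of the promoters of tested genes. YY1 letters were in 2 (2.63%) and the E-box in 7 (9.21%), against 248 and 944 of the 9441 promoters of tested genes. 5 of the 16 complex V promoters held the E-box, and 0 of the 14 of complex IV did. The LPS log2 fold change had a median of 1.33 over the 15 tested members with the NRF1 letters and of 1.33 over the 59 without them. For the E-box the medians were 1.35 over 7 members and 1.33 over 67. A match of letters is a description of sequence and not a bound site.

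Most of these genes were higher after LPS. Of the 87 members tested, 75 were higher in the LPS-stimulated libraries and 1 was lower (edgeR quasi-likelihood test with genotype as a block, Benjamini-Hochberg adjusted p under 0.05 over 14600 genes), where 19.7% of all genes tested were higher and 21.1% were lower. The median log2 fold change of the members was 1.33, a fold of 2.51, beside -0.07 over all genes tested. The 3 LPS-stimulated libraries lay above the 3 resting libraries without overlap for 78 members and below them for 1, where 25.0% and 27.3% of all genes did so. Summed over all members, the level went from 3075 to 9392 CPM in wt, from 3285 to 8086 CPM in Eμ-deficient and from 3464 to 8394 CPM without the 3′RR. With the summed spike-in RNAs as library size, 46 members were higher and 1 lower, the median of the members was 1.12 and that of all genes tested -0.28. The 92 genes took between 0.307% and 0.346% of the scaled counts at rest and between 0.809% and 0.939% after LPS.

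**Figure D1:**
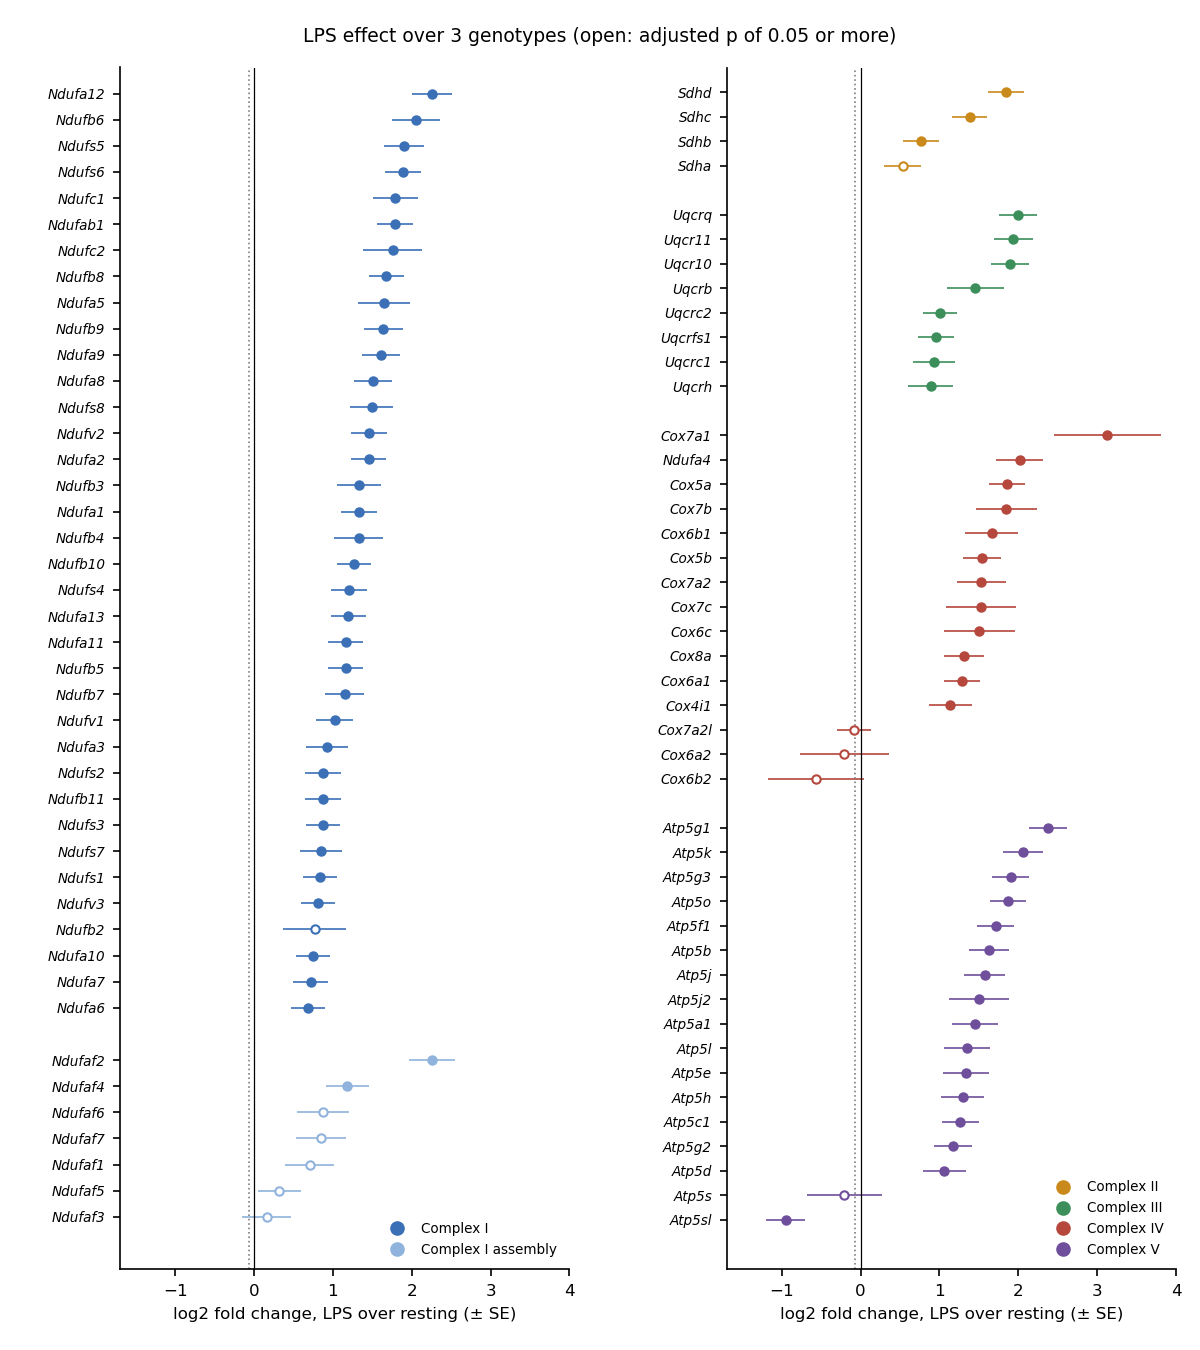
LPS effect of the 87 members tested, as log2 fold change over the 3 genotypes with its standard error, by complex. Filled points have an adjusted p under 0.05, and the dotted line is the median of all 14600 genes tested at -0.07. Apart from Atp5sl at -0.95, every filled point lies to the right of 0.

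The cells of the libraries also differed in kind between the states. The 4 cycling markers (Mki67, Top2a, Cdk1 and Ccnb1) were all higher after LPS, with a summed level of 89.9 to 222 CPM at rest and 1232 to 1283 CPM after LPS. All tested markers of T-cells (5 of 5), myeloid cells (7 of 7), erythroid cells (6 of 6) and NK cells (1 of 1) were lower. The T-cell markers summed to 14.5 to 31.5 CPM at rest and 0.43 to 4.13 CPM after LPS, the myeloid markers to 163 to 393 and 25.7 to 39.5 CPM, and the erythroid markers to 3359 to 20163 and 53.0 to 671 CPM. NK markers summed to at most 2.26 CPM, and Klrb1c was at 0 in the 3 LPS-stimulated libraries. Of the 9 B-cell markers 4 were lower and 0 higher, with summed levels of 2923 to 3847 CPM at rest and 1888 to 2215 CPM after LPS, and of 5 tested plasma cell markers Prdm1 and Xbp1 were higher. The part of these cells in the rise of the members was not tested.

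Complex I had 35 of its 36 subunits higher after LPS, with a median log2 fold change of 1.30. Its 7 nuclear core subunits, which hold the flavin and the iron-sulfur clusters that take electrons from NADH, were all higher, between 0.83 for Ndufs1 and 1.49 for Ndufs8 on the log2 scale. Ndufs8, which binds a pair of iron-sulfur clusters, stood at 21.0 CPM in wt, 12.7 CPM in Eμ-deficient and 19.9 CPM in 3′RR-deficient cells at rest and at 37.3, 40.5 and 77.8 CPM after LPS. The 3′RR-deficient LPS library was the highest for this gene, and the states did not overlap. The 29 accessory subunits, which surround the core, had 28 members higher and a median of 1.33, against 0.88 for the core. Their median log2 ratio was above that of the core in wt (1.51 against 0.83) and in Eμ-deficient cells (1.27 against 1.07). It was below that of the core in 3′RR-deficient cells (1.11 against 1.31). Accessory transcripts were shorter, with a median of 704 against 1623 bases. This difference between accessory and core subunits was not tested.

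Ndufa12, an accessory subunit of the arm that protrudes into the matrix, had the largest rise of complex I. Its level was 15.8 CPM in wt, 23.3 CPM in Eμ-deficient and 17.1 CPM in 3′RR-deficient cells at rest, and 109, 88.3 and 71.9 CPM after LPS. Every LPS-stimulated library was more than 3 times the highest resting one, and the log2 fold change was 2.26 ± 0.26 (SE, adjusted p = 0.000309). Ndufb6, in the membrane arm, went from 10.4, 15.8 and 15.04 CPM to 74.2, 61.1 and 39.6 CPM (log2 fold change 2.06 ± 0.30, adjusted p = 0.000979), and the states did not overlap. Ndufs6, of the matrix arm, went from 15.9, 12.8 and 17.5 CPM to 49.5, 49.9 and 74.1 CPM (1.89 ± 0.23, adjusted p = 0.000384). Here the 3′RR-deficient library was the highest after LPS, and for Ndufb6 it was the lowest. Ndufc1, a short subunit of the membrane arm, went from 6.995, 12.5 and 8.47 CPM to 38.3, 37.5 and 21.4 CPM (1.79 ± 0.28, adjusted p = 0.00138). Ndufs5 is described below with its pseudogene.

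Ndufb2 was the 1 complex I subunit that did not pass the test, with 9.47, 16.1 and 12.3 CPM at rest and 35.9, 26.5 and 9.34 CPM after LPS (log2 fold change 0.77 ± 0.40, adjusted p = 0.154). In wt and Eμ-deficient cells it stood higher after LPS, and in 3′RR-deficient cells it did not. Per kb of transcript, Ndufa3 had the highest mean level of the complex over the 6 libraries, 75.2 to 124 CPM per kb at rest and 168 to 218 CPM per kb after LPS. Ndufa1 in the Eμ-deficient (221 CPM per kb) and Ndufa2 in the 3′RR-deficient LPS library (187 CPM per kb) stood above it. The increase of Ndufa3 was among the smaller ones (0.92 ± 0.27, adjusted p = 0.023).

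The assembly factors of complex I hold intermediates together and do not stay in the finished enzyme. Of the 7, 2 were higher after LPS and 0 lower, a share not far from the 19.7% of all genes tested that were higher, and the median log2 fold change was 0.85. Their levels were low, with medians of 3.2 to 4.5 CPM per kb at rest and 6.1 to 7.7 CPM per kb after LPS. Ndufaf2, a paralogue of Ndufa12 that binds late intermediates, went from 2.97, 3.49 and 3.02 CPM to 19.1, 12.8 and 13.9 CPM (2.26 ± 0.29, adjusted p = 0.000526). The paralogues thus had the same log2 fold change to 2 decimals, with Ndufaf2 at the lower CPM in every library. Ndufaf4 went from 9.20, 11.4 and 6.81 CPM to 29.5, 18.5 and 15.2 CPM (1.18 ± 0.27, adjusted p = 0.00849). The other 5 had log2 fold changes between 0.16 for Ndufaf3 and 0.88 for Ndufaf6 and did not pass the test.

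Complex II oxidises succinate and is also an enzyme of the citric acid cycle. Its membrane anchors Sdhd and Sdhc had the larger increases and the catalytic Sdhb and Sdha the smaller ones. Sdhd stood at 29.4 CPM in wt, 26.6 CPM in Eμ-deficient and 28.7 CPM in 3′RR-deficient cells at rest and at 116, 82.6 and 109 CPM after LPS (log2 fold change 1.85 ± 0.23, adjusted p = 0.000413). Sdhc went from 18.1, 20.0 and 20.0 CPM to 55.2, 45.1 and 51.6 CPM (1.38 ± 0.22, adjusted p = 0.00157). For both anchors the resting libraries were close together and far below every LPS library.

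Sdhb, the iron-sulfur subunit, went from 31.2, 24.8 and 31.7 CPM to 43.4, 40.9 and 67.6 CPM (0.76 ± 0.23, adjusted p = 0.0263) and lost the call in 6 of the 14 settings tried, where the anchors lost it in 0. Sdha, the flavoprotein with the active site, had 83.3, 66.5 and 78.7 CPM at rest and 102, 93.5 and 138 CPM after LPS. The states of Sdha did not overlap, but its log2 fold change of 0.53 ± 0.23 did not pass the test (adjusted p = 0.0961). Without the wt libraries, or with the trend on GC content removed, it did pass (adjusted p = 0.0152 and 0.0388). The difference in fold change between anchors and catalytic subunits was not tested.

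All 8 members of complex III, the cytochrome bc1 complex, were higher, with a median log2 fold change of 1.23. The 5 small subunits had a median of 1.89, while the Rieske iron-sulfur protein Uqcrfs1 (0.95) and the core proteins Uqcrc1 (0.93) and Uqcrc2 (1.01) had smaller values. Uqcrq, which binds next to cytochrome b, went from 17.8, 15.4 and 18.3 CPM in wt, Eμ-deficient and 3′RR-deficient cells at rest to 55.7, 62.2 and 91.8 CPM after LPS (1.99 ± 0.24, adjusted p = 0.000379). Uqcr11 went from 22.4, 27.9 and 24.9 CPM to 94.0, 80.2 and 115 CPM (1.94 ± 0.24, adjusted p = 0.000456), and Uqcr10 from 36.6, 31.4 and 41.5 CPM to 109, 121 and 184 CPM (1.89 ± 0.24, adjusted p = 0.000476). The 3′RR-deficient LPS library was the highest for all 3. It was the lowest of the LPS libraries for the other small subunits, Uqcrb (126, 78.8 and 41.6 CPM) and Uqcrh (178, 148 and 107 CPM).

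Uqcrh, the hinge protein that helps cytochrome c dock, had the highest mean level of complex III per kb of transcript over the 6 libraries (108 to 177 CPM per kb at rest and 195 to 325 CPM per kb after LPS) and the smallest rise of the small subunits (0.89 ± 0.28, adjusted p = 0.0332). Uqcr10 was above it after LPS in Eμ-deficient (279 CPM per kb) and 3′RR-deficient cells (424 CPM per kb). The resting Eμ-deficient library of Uqcrh, at 97.1 CPM, came near the 3′RR-deficient LPS library, at 107 CPM. Uqcrc1 had 55.6, 30.3 and 49.2 CPM at rest and 67.0, 68.3 and 126 CPM after LPS.

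**Figure D2:**
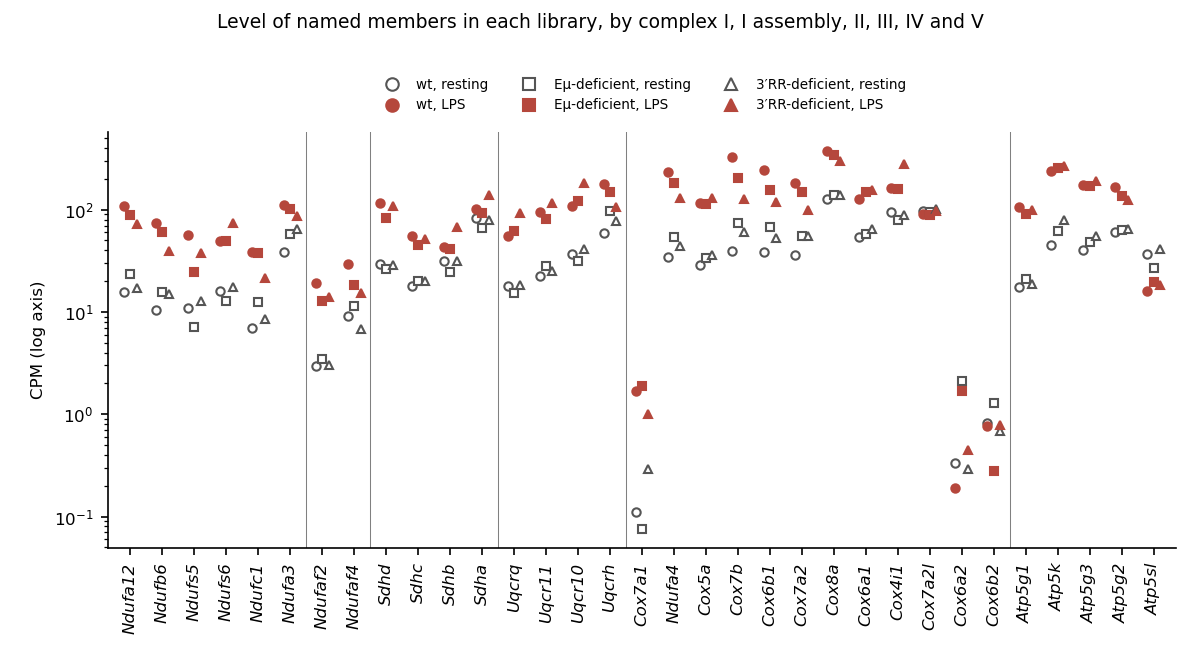
CPM on a log axis of the named members that entered the tests, in each of the 6 libraries, with vertical lines between the complexes. Open symbols are resting and filled red symbols are LPS-stimulated libraries, and the symbol gives the genotype. The states separate for most members, and they coincide for Cox7a2l between 89.2 and 101 CPM.

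Complex IV, cytochrome c oxidase, reduces oxygen to water and is known for its common subunits and tissue-restricted isoforms of them. All 11 common subunits were higher after LPS, with log2 fold changes between 1.14 for Cox4i1 and 2.02 for Ndufa4 and a median of 1.53. Ndufa4, named for complex I and now counted with complex IV, went from 34.5, 53.7 and 43.9 CPM to 233, 180 and 129 CPM (2.02 ± 0.30, adjusted p = 0.000993). Cox5a, which faces the matrix, went from 29.0, 33.7 and 36.4 CPM to 117, 113 and 129 CPM (1.86 ± 0.23, adjusted p = 0.000394). Its 3 LPS libraries lay close together and far above the resting ones. Cox7b went from 39.2, 74.1 and 60.0 CPM to 327, 203 and 126 CPM (1.85 ± 0.39, adjusted p = 0.00546).

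Cox8a had the highest mean level over the 6 libraries of all members per kb of transcript, 233 to 255 CPM per kb at rest and 538 to 682 CPM per kb after LPS (log2 fold change 1.31 ± 0.25, adjusted p = 0.0037). Of the others, Cox4i1 (2.20-fold), Cox6a1 (2.44-fold), Cox7a2 (2.89-fold) and Cox6b1 (3.17-fold) rose as well. In single libraries others stood above Cox8a, with Cox7c at 769 and Cox6c at 732 CPM per kb in the wt LPS library. Cox6c and Cox7c passed the test with the widest errors among the common subunits, 1.50 ± 0.45 and 1.52 ± 0.44, and their states overlapped. Cox7c had 57.0, 94.7 and 72.4 CPM at rest and 415, 248 and 91.1 CPM after LPS. The 3′RR-deficient LPS library was below the resting Eμ-deficient library.

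Cox7a2l, which encodes a factor that joins complexes III and IV in supercomplexes and resembles the Cox7a subunits, stood apart from the common subunits in its values. It had 97.1, 93.8 and 101 CPM at rest and 90.2, 89.2 and 95.9 CPM after LPS, a log2 fold change of -0.08 ± 0.22 (adjusted p = 0.785). In each genotype the LPS library was slightly below the resting one, while its paralogue Cox7a2 went from 36.1, 54.7 and 55.7 CPM to 180, 150 and 98.6 CPM (1.53 ± 0.31, adjusted p = 0.00471). In CPM per kb, Cox7a2l was above Cox7a2 in every resting library (87.2 to 93.6 against 54.8 to 84.6) and below it in every LPS library (82.9 to 89.2 against 150 to 274).

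The isoforms known from muscle, testis or lung were at or near 0. Cox7b2, Cox8b and Cox8c had 0 counts in all 6 libraries, which allows up to 0.144 CPM in the wt LPS library and 0.337 CPM in the 3′RR-deficient LPS library (3 counts, counting error only). Cox4i2 had at most 2 counts and Ndufa4l2 at most 3. Cox6b2, a testis form, had 3 to 17 counts (log2 fold change -0.56 ± 0.61, adjusted p = 0.479). Cox7a1, the heart and muscle form, was the 1 restricted isoform that passed the test. It had 2, 1 and 6 counts at rest and 35, 20 and 9 counts after LPS, which is 0.11, 0.076 and 0.29 CPM against 1.68, 1.88 and 1.01 CPM. The fit gave it the largest log2 fold change of all members (3.13 ± 0.68, adjusted p = 0.0063), a value that rests on few counts. The 95% counting interval of its log2 ratio ran from 1.97 to 7.03 in wt and from 0.14 to 3.57 in 3′RR-deficient cells. After LPS it still stood at 2.58 to 4.77 CPM per kb, where Cox7a2 stood at 150 to 274 CPM per kb.

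Complex V had 15 of 17 members higher, and these 15 are all of its subunits that the name rule takes. The F1 part, where ATP is made, had a median log2 fold change of 1.34, the stalk and membrane part 1.57 and the c-ring 1.90. The catalytic subunit gene Atp5b and its partner Atp5a1 had the largest CPM of the complex. Atp5b went from 195, 153 and 195 CPM to 549, 503 and 619 CPM, and Atp5a1 from 219, 136 and 186 CPM to 410, 399 and 684 CPM. Atp5k, the e subunit at which ATP synthase dimers form, had the highest mean level of the complex per kb of transcript over the 6 libraries, 121 to 213 CPM per kb at rest and 638 to 719 CPM per kb after LPS. At rest Atp5e was above it in every genotype, at 156 to 281 CPM per kb. In CPM Atp5k went from 44.8, 62.4 and 78.9 to 237, 254 and 267 (2.06 ± 0.26, adjusted p = 0.000449).

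The c-ring, the rotor through which protons pass, is encoded by Atp5g1, Atp5g2 and Atp5g3, whose mature proteins are the same. Atp5g1 had the largest rise among well-counted members, from 17.4, 21.1 and 18.7 CPM in wt, Eμ-deficient and 3′RR-deficient cells to 107, 90.03 and 99.7 CPM (log2 fold change 2.38 ± 0.24, adjusted p = 0.00017). Atp5g3 went from 39.9, 48.8 and 55.7 CPM to 174, 170 and 191 CPM (1.90 ± 0.24, adjusted p = 0.000455), and Atp5g2 from 60.7, 63.8 and 64.6 CPM to 167, 137 and 125 CPM (1.17 ± 0.24, adjusted p = 0.00454). Atp5g1 gave 13.5% to 15.8% of the counts of the 3 genes at rest and 22.7% to 24.0% after LPS, without overlap, and Atp5g2 gave 46.5% to 51.4% and then 30.1% to 37.2%. The 3 genes have transcripts of different length, so these are shares of counts and not of molecules.

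Atp5sl was the 1 member that passed the test as lower after LPS. It had 37.1, 27.0 and 40.9 CPM at rest and 16.1, 19.4 and 18.2 CPM after LPS, a log2 fold change of -0.95 ± 0.25 (adjusted p = 0.0138), and every LPS library was below every resting one. Without the 3′RR-deficient libraries the call was lost (-0.85, adjusted p = 0.0676). Atp5s, known as coupling factor B, stood at 1.38 to 2.65 CPM at rest and 1.24 to 2.54 CPM after LPS (-0.21 ± 0.47, adjusted p = 0.752). Neither protein is a subunit of the enzyme.

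Each genotype has 1 pair of libraries, so that differences in the LPS response between genotypes were not tested. The median log2 ratio over the 87 members was 1.52 in wt, 1.21 in Eμ-deficient and 1.09 in 3′RR-deficient cells, where the medians over all genes tested were -0.08, -0.00 and -0.09. With spike-ins as library size the members' medians were 0.72, 1.37 and 1.09, so that wt no longer had the largest. Another library size moves every gene of a pair by the same amount. The distance of the members from all genes tested therefore stayed the same, and was largest in wt. The ratio was at least 2-fold for 62 members in wt, 58 in Eμ-deficient and 48 in 3′RR-deficient cells, for 36 in all 3 genotypes and for none of them in 14. wt had the largest ratio of the 3 for 53 members, 3′RR-deficient cells for 28 and Eμ-deficient cells for 6. These counts were not taken over all genes tested, so they have no share to stand beside. The ratios of all genes tested were spread most widely in wt. Their quartiles were -1.02 and 0.82 in wt, -0.76 and 0.69 in Eμ-deficient and -0.83 and 0.72 in 3′RR-deficient cells. For complex IV the medians were 2.01, 1.35 and 1.08, and for the 7 core subunits of complex I they were 0.83, 1.07 and 1.31, the reverse order.

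**Figure D3:**
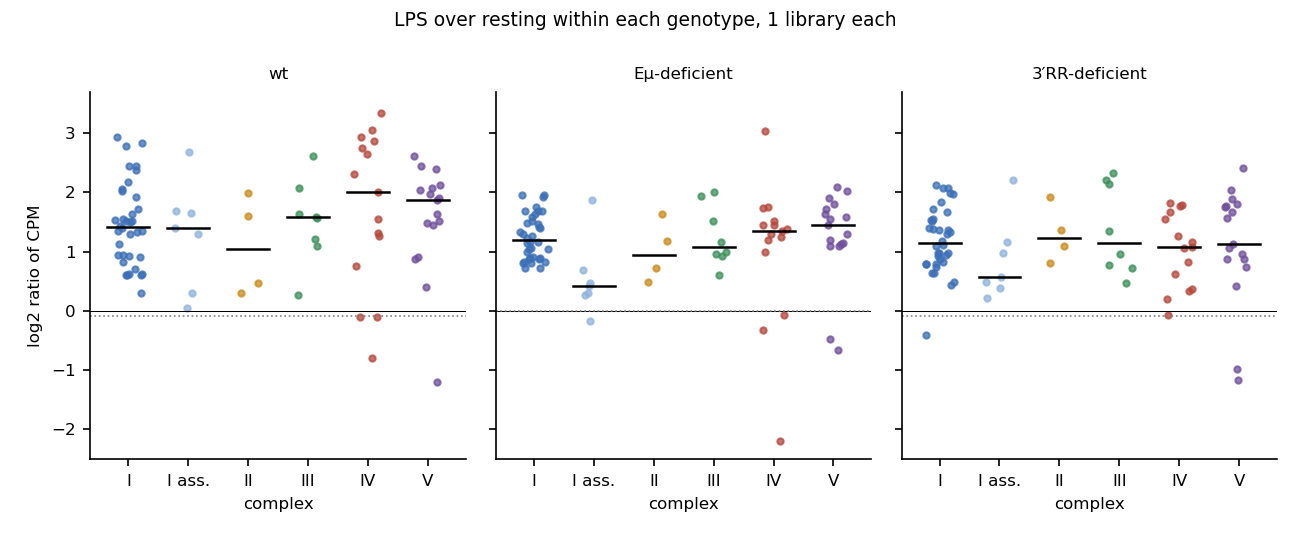
Log2 ratio of CPM, LPS over resting, of the members tested in each genotype, by complex. Black bars are medians and the dotted line is the median of all genes tested. The medians of complex IV are 2.01 in wt, 1.35 in Eμ-deficient and 1.08 in 3′RR-deficient cells.

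The ratios differed by the GC content of the transcripts. In wt, the 29 members of lowest GC content (up to 49.0%) had a median log2 ratio of 1.68 and the 29 of highest GC content (from 53.9%) one of 1.34, while in 3′RR-deficient cells the medians were 0.98 and 1.36. In Eμ-deficient cells they were 1.15 and 1.24. All genes tested had slopes of the same sign, with Spearman's rho against GC content of -0.26 in wt, 0.03 in Eμ-deficient and 0.15 in 3′RR-deficient pairs, against -0.37, 0.04 and 0.17 across the 87 members (a description across genes, which share their libraries). The spike-in RNAs, which are added in fixed proportions to one another, had unequal ratios too. The SD of their log2 ratios over 35 spike-ins was 0.784 in the wt pair, 0.633 in the 3′RR-deficient pair and 0.135 in the Eμ-deficient pair. The Eμ-deficient pair, with the least spread of spike-ins, gave a positive log2 ratio for 81 of 87 members. With the trend on GC content removed from every library, 78 members were higher after LPS. The 92 members also had shorter transcripts, with a median of 823.5 bases against 2611 over all genes tested. Spearman's rho against length over all genes tested was -0.19 in wt, -0.16 in Eμ-deficient and -0.14 in 3′RR-deficient pairs. With the trend on length removed, 65 of the 75 members stayed higher and the median log2 fold change of the members was 1.02. The parts of GC content in the order of the genotypes and of length in the rise were not tested.

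**Figure D4:**
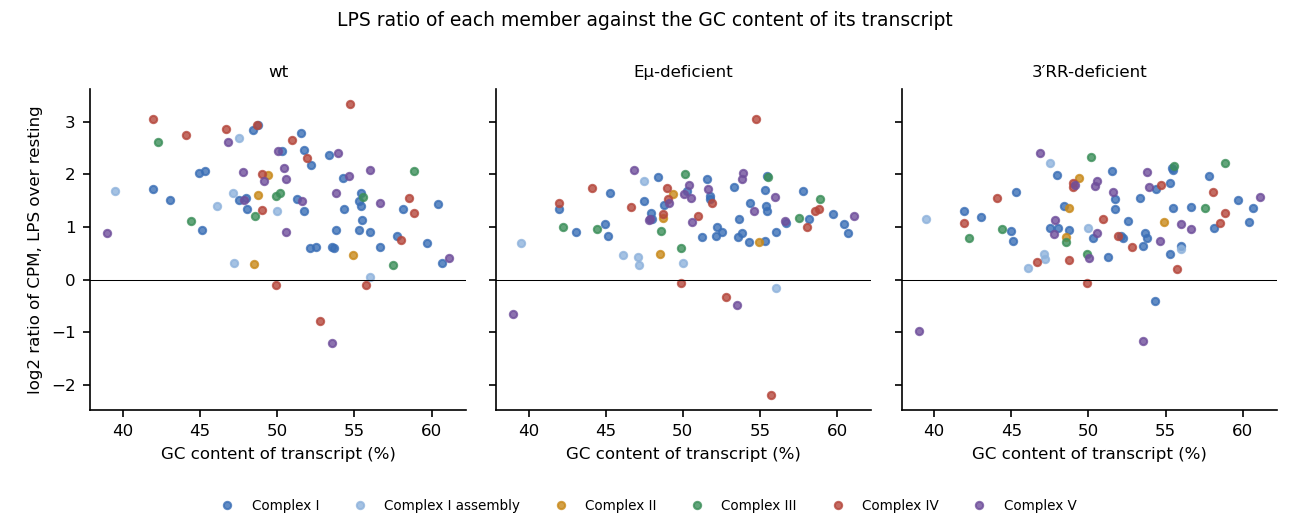
Log2 ratio of CPM, LPS over resting, of the 87 members against the GC content of the transcript in each genotype, coloured by complex. Spearman's rho is -0.37 in wt, 0.04 in Eμ-deficient and 0.17 in 3′RR-deficient cells.

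No member passed the test in either mutant, in a design with 1 library per genotype and state. For 3′RR-deficient against wt cells over both states, 0 of 87 members were higher and 0 lower by edgeR, where 0.171% and 0.507% of all genes tested were. 0 members had an unadjusted p under 0.05, and DESeq2 called 0. The median log2 fold change of the members was 0.02, with a range of -0.96 to 0.52. For Eμ-deficient against wt cells, again 0 members were higher and 0 lower, beside 0.911% and 0.253% of all genes tested. 2 had an unadjusted p under 0.05, DESeq2 called 0, and the median log2 fold change was -0.04. Both comparisons share the wt libraries.

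Within a state, the 3′RR-deficient resting library was close to that of wt, with a median log2 ratio of 0.13 and no member at a 2-fold difference. The largest were 0.89 for Ndufaf7 and 0.85 for Atp5e. After LPS the median was -0.17, with a wide spread. These signs turned as well, to -0.12 at rest and 0.38 after LPS with spike-ins and to -0.064 at rest with total counts as library size. All genes of a pair move alike with the library size. With TMM the all-gene medians were 0.02 at rest and 0.11 after LPS. 4 members were at least 2-fold higher (among them Ndufs8 at 1.06 and Atp5d at 1.06) and 11 at least 2-fold lower (among them Cox7c at -2.19, Ndufb2 at -1.94 and Cox6c at -1.89). All genes tested had a wide spread in this pair too. Their quartiles were -0.50 and 0.71, against -0.65 and 0.42 for the members. How many of all genes were at a 2-fold difference was not counted in either state. These ratios differed by GC content as well. 3 of the 29 members of lowest GC content had a positive ratio, and 19 of the 29 of highest GC content did. The trend was not particular to the members. Spearman's rho against GC content was 0.57 over all genes tested and 0.47 over the members. The spike-ins of this pair of libraries had an SD of 1.27 on the log2 scale, against 0.157 for the resting pair. The part of this trend in the ratios was not tested.

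Eμ-deficient cells had a median log2 ratio to wt of 0.14 at rest, with 53 members above and 34 below 0, and of -0.13 after LPS, with 23 above and 64 below. Of all genes tested, 7617 were above and 6983 below 0 at rest, and 7607 above and 6993 below after LPS. The all-gene median was 0.03 in both states. Both signs of the members' medians depended on the scaling. The resting median was -0.67 with spike-ins and -0.056 with total counts as library size, and the LPS median was 0.017 with spike-ins. Such a change moves all genes of a pair alike, and not the members alone. At rest, complex IV stood at 0.60, and complex II at -0.24. The summed complex IV level was 729 CPM in wt, 916 CPM in Eμ-deficient and 870 CPM in 3′RR-deficient cells at rest, and 2817, 2210 and 1880 CPM after LPS. Complex V, in contrast, had 1068, 1035 and 1200 CPM at rest and 3272, 2905 and 3218 CPM after LPS. The resting Eμ-deficient library also held the most erythroid RNA, with summed marker levels of 20163 CPM against 3359 CPM in wt and 3868 CPM in 3′RR-deficient cells. Some other marker sums were higher there than in resting wt cells too. They were 2235 against 547 CPM for plasma cells and 393 against 163 CPM for myeloid cells. T-cell markers had 31.5 against 14.5 CPM and cycling markers 222 against 89.9 CPM. Jchain alone gave 1737 of the 2235 CPM (called higher in Eμ-deficient cells by edgeR, adjusted p = 0.00748), while Irf4 had 367 against 373 CPM. Cd4 alone gave 24.2 of the 31.5 CPM. The sums of B-cell markers (2923 against 3397 CPM) and NK markers (1.82 against 2.26 CPM) were lower there. The ratios of the members to wt differed by GC content here too. At rest 23 of the 29 members of lowest GC content had a positive ratio, and 14 of the 29 of highest GC content did. After LPS 1 of the 29 of lowest and 15 of the 29 of highest GC content did. All genes tested had slopes of the same sign. Their Spearman's rho was -0.38 at rest and 0.24 after LPS, against -0.43 and 0.51 over the members. The spike-ins of the Eμ-deficient to wt pairs had SDs of 0.477 at rest and 0.440 after LPS. What part these values had in the ratios was not tested.

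**Figure D5:**
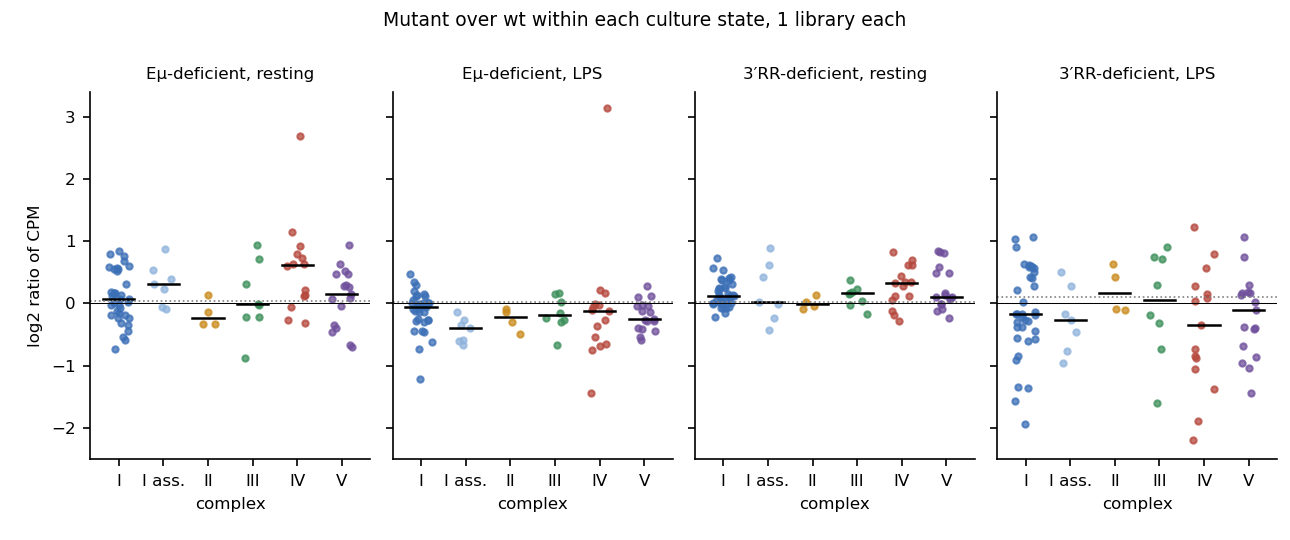
Log2 ratio of CPM, mutant over wt, of the members tested within each culture state, by complex. Black bars are medians and the dotted line is the median of all genes tested. The 3′RR-deficient resting ratios lie between -0.43 and 0.89, and the 3′RR-deficient LPS ratios between -2.19 and 1.23. The highest point of both Eμ-deficient panels is Cox6a2.

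Cox6a2 and Ndufs5 were the 2 members with an unadjusted p under 0.05 in Eμ-deficient cells, and also the ones past a log2 ratio of 0.5 in the same direction in both states (1 higher, where 10.5% of all genes tested were, and 1 lower, where 3.07% were). In 3′RR-deficient cells 0 members were past it in either direction, beside 5.85% and 3.75%. Cox6a2, the heart and muscle isoform of Cox6a1, had 28 counts at rest and 18 after LPS in Eμ-deficient cells, and 6 and 4 counts in both wt and 3′RR-deficient cells. By edgeR the log2 fold change was 2.85 ± 0.67 (adjusted p = 0.101). It passed the adjusted threshold without the filter on low counts (adjusted p = 0.0145) and without the 3′RR-deficient libraries (adjusted p = 0.0212). Its exons overlap those of Itgad, a myeloid integrin on the other strand. At rest Itgad had 31.4 CPM in Eμ-deficient, 7.99 CPM in wt and 16.4 CPM in 3′RR-deficient cells. After LPS it had 0 counts in Eμ-deficient, 0 in wt and 2 in 3′RR-deficient cells. Its part in the counts of Cox6a2 was not tested.

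Ndufs5, an accessory subunit of the membrane arm of complex I, had 10.9 CPM in wt, 7.20 CPM in Eμ-deficient and 12.9 CPM in 3′RR-deficient cells at rest and 56.3, 24.4 and 38.0 CPM after LPS. The LPS effect was a log2 fold change of 1.90 ± 0.26 (adjusted p = 0.000639), and the Eμ-deficient effect was -0.93 ± 0.31 (adjusted p = 0.295). The counts of its processed pseudogene BC002163 (GRCm38, chr16:42955631-42955949, plus strand), which matches it at 99.4% of 319 bases, differed in the other direction. BC002163 had 13.1 CPM in Eμ-deficient against 1.27 CPM in wt and 1.61 CPM in 3′RR-deficient cells at rest, and 41.7 against 3.73 and 2.81 CPM after LPS. It took 64.6% and 63.1% of the joint counts in the Eμ-deficient libraries and between 6.22% and 11.1% in the 4 others. Summed over gene and pseudogene, Eμ-deficient cells were above wt by 0.74 at rest and 0.14 after LPS on the log2 scale, and not below it. Reads that map to several places were counted by the authors, so the gene and its copy can exchange reads. The part of such an exchange in the ratios was not tested.

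The pseudogene share also differed between genotypes for Cox7a2l and its pseudogene Gm6969 on chromosome 12, but the gene did not move the other way. Gm6969 held 20.5% and 15.4% of the joint counts in the wt libraries, 3.51% and 3.26% in the Eμ-deficient and 0.337% and 0% in the 3′RR-deficient libraries. Cox7a2l alone had log2 ratios to wt between -0.05 and 0.09. Summed with Gm6969, the ratios were -0.33 at rest and -0.21 after LPS in Eμ-deficient cells. In 3′RR-deficient cells they were -0.27 and -0.15. Atp5g2 shared 20.9% to 32.8% of its joint counts with 3 pseudogenes, nearly all of them Gm10175, in every library. In all, 29 members had a pseudogene of at least 90% identity over 150 bases in the table, these 59 pseudogenes held 1.58% of the joint counts, and adding them changed the log2 ratio of no tested member by more than 0.19 between the states of a genotype.

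The other genes of the pathway were taken from lists by function and not by how they moved, though earlier results of these data were known. Their counts stand beside 19.7% of all genes tested that were higher and 21.1% that were lower. Of 5 other subunits and carriers that were tested, 2 were higher and 0 lower. The 2 were Cycs, cytochrome c (2.49 ± 0.37, adjusted p = 0.0011), and Cyc1, the cytochrome of complex III (1.56 ± 0.25, adjusted p = 0.0016). Usmg5 (1.07 ± 0.51, adjusted p = 0.121) and 2010107E04Rik (1.10 ± 0.52, adjusted p = 0.122), subunits of complex V outside the name rule, did not pass the test. Both stood higher after LPS in wt and Eμ-deficient cells. In 3′RR-deficient cells they stood lower, from 54.3 to 37.6 CPM and from 71.1 to 47.8 CPM. Of 39 assembly factors outside the name rule, 14 were higher and 0 lower, with a median log2 fold change of 0.53. The largest were Cmc2 (2.12) and Coa6 (1.51), both known from the biogenesis of complex IV, and Lyrm7 (1.43), which delivers the Rieske protein. Of the 14 citric acid cycle genes other than Sdh, 9 were higher and 0 lower, with a median of 0.76, led by Idh3a (1.71), Cs (1.14) and Suclg1 (1.09).

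The mitochondrial genome encodes further subunits of complexes I, III, IV and V. By edgeR 0 of 12 tested were called higher or lower after LPS, 0 had an unadjusted p under 0.05, DESeq2 called 0, and the median log2 fold change was 0.39. Their median log2 ratio was 1.29 in wt, 0.10 in Eμ-deficient and -0.56 in 3′RR-deficient cells, so its sign differed between the genotypes. Of 13 regulators of mitochondrial genes, 1 was higher and 3 lower, shares that lie below and near those of all genes tested (19.7% and 21.1%). Tfb1m, a methyltransferase of the mitochondrial ribosome, was higher (1.22), and Myc (-1.60), Ppargc1a (-1.36) and Esrra (-0.80), all known as activators of respiratory or growth genes, were lower. Nrf1, Gabpa and Yy1, whose letters were searched in the promoters, had log2 fold changes of 0.06, 0.69 and 0.09 and did not pass the test (adjusted p = 0.856, 0.0512 and 0.754).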

How the data were processed

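RNA of CD43-depleted splenic B-cells was sequenced after removal of ribosomal RNA, with stranded libraries and paired reads. Per the labels, the reads were mapped to mm10 with STAR 2.4.0a and counted per gene name with featureCounts (Subread 1.4.6-p1). The authors deposited raw counts, and they counted reads that map to several places, so near-identical copies can exchange reads. The counts follow the sense strand: of 123 antisense genes inside exons of a strongly counted coding gene, 118 had fewer counts per kb than that gene. 92 spike-in RNAs, 4.75% to 7.10% of the counts, entered neither library sizes nor tests.

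Genes that reached 10 counts in 2 or more libraries were fitted with edgeR 4.0.16 (R 4.3.3, TMM scaling, quasi-likelihood test, genotype and culture state as additive terms, 2 residual degrees of freedom, Benjamini-Hochberg adjustment over all genes tested, threshold 0.05). Single ratios carry exact conditional binomial (Clopper-Pearson) 95% intervals from scipy 1.17.1, which cover counting error only, with 3 counts as the floor. Amplified reads are not independent molecules. Lengths, GC content and coordinates come from GENCODE M21 (GRCm38, the build of the files), promoters from the RefSeq table, and pseudogenes from blastn 2.17.0. Protein sequences were not used here. Of 46963 gene names, 44203 matched the annotation by name and 763 by an older name. Where several transcripts exist, levels per kb depend on the one taken.

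Named are, for each complex, the member highest per kb and the 3 largest called changes in each direction that went the same way in all 3 genotypes (5 for complex I), the Sdh genes, and the isoform families. Ndufa1, Ndufa2, Ndufs1, Ndufs8, Ndufb2, Ndufaf3, Ndufaf6, Ndufaf7, Uqcrb, Uqcrc1, Uqcrc2, Uqcrfs1, Cox6c, Cox7c, Atp5a1, Atp5b, Atp5d, Atp5e and Atp5s were named after their values were seen, as were Usmg5, 2010107E04Rik, Nrf1, Gabpa, Yy1, Itgad and the pseudogenes. The members and lists were chosen with earlier results of these data known. Alternatives were other scalings (total count, DESeq2 size factors, TMM without immunoglobulin genes, spike-ins), other filters, the DESeq2 1.42.0 Wald test, no genotype block, leaving out each genotype or 1 library, removal of trends on GC content or length, and leaving out members that overlap a gene of the other strand. The fit was tested on simulated data.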

Additional observations from a re-analysis of the deposited data

Results flagged for a closer look

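Atp5l2-ps, one of the 4 processed copies that the name rule left out, had 510 counts over the 6 libraries: 53 in wt, 34 in Eμ-deficient and 85 in 3′RR-deficient cells at rest, and 127, 85 and 126 after LPS. It is named here because these counts lie outside the members and above the 3 counts that a count of 0 allows. The other 3 copies had at most 1 count in any library.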

How the results depend on the processing

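With the summed spike-ins as library size, 46 members were higher after LPS instead of 75, the median log2 ratio of the members was 0.72 in wt, and the mutant medians were -0.67 (Eμ-deficient, resting), -0.12 (3′RR-deficient, resting) and 0.38 (3′RR-deficient, LPS). Such a scaling moves the ratios of all genes in a pair of libraries alike. With total counts, the median was 1.27 in wt and -0.056 in resting Eμ-deficient cells. With the length trend removed, it was 1.12 in wt and 0.94 in Eμ-deficient cells. Leaving out 1 genotype gave 60 to 76 higher members and 0 to 1 lower, with 60 without the Eμ-deficient, 66 without the 3′RR-deficient and 76 without the wt libraries, and 0 to 1 higher in Eμ-deficient cells. The fall of Atp5sl was lost without the 3′RR-deficient libraries or the LPS library alone (0 lower). Cox6a2 was called in Eμ-deficient cells (1 higher) without the filter and without the 3′RR-deficient libraries or their LPS library. Without the Eμ-deficient libraries the LPS log2 fold changes of Cox6a2 (0.0012), Cox6b2 (0.13) and Cox7a2l (0.0037) turned positive, the upper ends of ranges over the genotypes left out that started at -0.48, -0.93 and -0.090. None of these passed the test. The causes were not tested. 45 of the 75 were higher in every one of 14 alternatives. With no replicate block, 73 members were higher. Each genotype has 1 library per state, so the block is the genotype, and shared replicate numbers pair nothing. Within a state the genotypes have no replicate, so ratios there have counting error only and no test.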
